A study of Mus musculus with 2 samples.

Results

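Genes for translation factors and ribosomal proteins were taken from a list of peaks of BUD31 RNA immunoprecipitation sequencing (RIP-seq) in mouse testicular germ cells. The members are the protein-coding genes of that list whose symbol begins with Eif, Eef, Rpl, Rps, Mrpl or Mrps, without the Rps6k kinases and 1 further gene. They number 29 of the 3258 genes in the list and carry 66 of its 16331 peaks. By symbol, 15 are initiation factors with 40 peaks, 6 are cytosolic ribosomal proteins with 9 and 8 are mitochondrial ribosomal proteins with 17. No gene named with Eef is among them. Every member has a peak by construction, so the presence of peaks was described only against the genes of each family in a reference gene table, again without the Rps6k kinases and that 1 gene.

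BUD31 is a protein of the spliceosome, the machine that removes introns from precursor RNA. In RIP-seq, RNA bound to a protein is recovered with an antibody and sequenced, and stretches with many reads are called as peaks. Germ cells were released by enzymatic digestion from the testis of C57BL/6J mice aged 14 days after birth. The comparison rests on 1 immunoprecipitate made with an antibody to BUD31 and 1 input, which used 10% of the total RNA. By the labels neither group carries a mutation or a drug treatment, and whether animals were pooled is not stated. The list holds positions and annotation classes but no counts, folds or scores, so depth is unknown, and with 1 library per group no test was possible. Peaks carry running numbers with gaps, between 15 of 37 successive peaks of members (40.5%) and in 39.3% of such steps over all coding genes, so the list is a part of a longer numbered set. Chromosomes 3, 6, 7, 9, 13 and 14 have no peak in it and were not analysed here. Every share and every number of peaks per gene below therefore counts listed peaks only. Intervals are 95% Wilson intervals over genes or peaks, and where a count is 0 the limit given is 3 counts of the total. Both cover counting error only. RNA abundance is not in the list either, so more RNA of a gene and more recovery of it with BUD31 cannot be told apart. Of 5 germ cell markers on chromosomes with peaks 4 had a peak (Sycp3, Mael, Boll and Tex11, not Dazl). Those 4 lie on chromosomes 1, 10 and X, where peaks are frequent. Of 5 somatic markers 1 had a peak (Wt1, not Sox9, Amh, Acta2 or Pecam1), but Sox9, Pecam1 and Acta2 lie on chromosomes 11 and 19, where no coding gene had one, so the cell type could not be checked from these markers.

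Translation begins when initiation factors bring the initiator tRNA, the messenger RNA and the small ribosomal subunit together. eIF2 carries the initiator tRNA, eIF2B recharges eIF2 with GTP, eIF3 scaffolds the small subunit, the eIF4 group binds the capped end of the messenger, and eIF5 and eIF5B act when the start codon is found and the large subunit joins. Cytosolic ribosomal proteins (Rpl for the large subunit, Rps for the small one) are encoded by short, highly expressed genes, some with introns that hold small nucleolar RNAs (snoRNAs), the guides of RNA modification. Mitochondrial ribosomal proteins (Mrpl, Mrps) are encoded in the nucleus and serve the separate ribosome of the organelle. In the testis several of these genes have copies with germ cell expression, such as Rpl10l and Rpl39l, which can stand in for an X-linked parent gene.

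Peaks over the start of a gene were found in 4 of the 25 members with a start site in the RefSeq table (GRCm38.p6, the mm10 build), namely Eif5b, Mrps18c, Rpl32l and Rpl36a. Their start sequences are shown because many ribosomal protein messengers begin with a terminal oligopyrimidine (TOP) tract, and Eif2s3x is added as the other member with such a start. Each line runs 5′ to 3′ over 15 bases before the start and 15 from it, and capitals mark the first 5 bases of the transcript.
Eif5b, chr1:37997995-37998024, plus strand: ggcgcctgggttcccACCTGgccggcggct
Mrps18c, chr5:100798744-100798773, plus strand: gaaaggaagaggaagGGCGGagaaccatgg
Rpl32l, chr10:20208424-20208453, plus strand: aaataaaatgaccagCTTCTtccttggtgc
Rpl36a, chrX:134585639-134585668, plus strand: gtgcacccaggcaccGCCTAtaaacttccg
Eif2s3x, chrX:94212637-94212666, minus strand: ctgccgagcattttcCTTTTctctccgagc
The tract was searched on the transcribed strand only, as a C at the annotated start followed by 4 bases that are each C or T. A start annotated a few bases off can fail this rule, so its absence does not show that a messenger lacks the tract. It was present in 2 of the 25 members (8.0%), Rpl32l and Eif2s3x, and in 57 of 2134 coding genes with a peak and a start site (2.67%). Among all genes of each family with a start site it was present in 15 of 70 cytosolic ribosomal protein genes (21.4%), 2 of 44 initiation factor genes and 0 of 68 mitochondrial ribosomal protein genes. Of all 21263 coding start windows 469 (2.21%) held it. Of the members with the tract, the start of Rpl32l lay under a peak and that of Eif2s3x did not. A start site under a peak was found in 4 of 25 members (16%, 6.40% to 34.7%) and in 271 of 2134 coding genes with a peak (12.7%). Members with no start site in the RefSeq table, namely Eif1a, Eif4ebp3, Mrpl15 and Mrpl54, are not counted. All of these but Mrpl15 are covered from end to end, so either end of those genes lies under a peak.

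Initiation factor genes had a peak in a larger share than coding genes as a whole, and cytosolic ribosomal protein genes, which are short, had a lower one that was not below that of coding genes of like chromosome and span. On chromosomes with at least 1 peak of any gene, 15 of 43 initiation factor genes had a peak (34.9%, 22.4% to 49.8%), against 18.1% of 14867 coding genes. For mitochondrial ribosomal protein genes this was 8 of 48 (16.7%, 8.70% to 29.6%) and for cytosolic ones 6 of 60 (10.0%, 4.66% to 20.1%). Over the 4 families together it was 29 of 160, or 18.1%, the same as the background. The totals of 43 and 160 include the Y-linked Eif2s3y as a gene without a peak, since the list labels its peaks as noncoding. Chromosomes differ widely in peaks, and 8 of them (1, 5, 8, 10, 12, 16, 18 and X) are called well covered here because 10% or more of their coding genes were named by a peak. Of the 29 members 28 lie on these, none of them on chromosome 8, where 6 family genes had no peak. There 14 of 21 initiation factor genes had a peak (66.7%, 45.4% to 82.8%), 8 of 15 mitochondrial ribosomal protein genes (53.3%, 30.1% to 75.2%) and 6 of 31 cytosolic ones (19.4%, 9.19% to 36.3%), against 34.5% of 7352 coding genes. The interval of the initiation factors lay above the background, and those of both ribosomal families included it. When only peaks annotated inside the gene were counted, 13 of the 15 initiation factor genes, all 8 mitochondrial and 4 of the 6 cytosolic ones were left. With peaks at or above the median width of their chromosome these counts were 13, 7 and 3. None of 6 genes listed under Eef had a peak, which allows a share of up to 50%, and coding genes of like chromosome and span would give 1.47. Only Eef2 and Eef1b2 of these are elongation factors, and the rest are methyltransferase genes of elongation factors or a readthrough of one. A further such methyltransferase gene, Eef1aknmt in the reference table, is named Mettl13 in the list and had 3 peaks, so the count of 0 depends on the name.

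**Figure D1:**
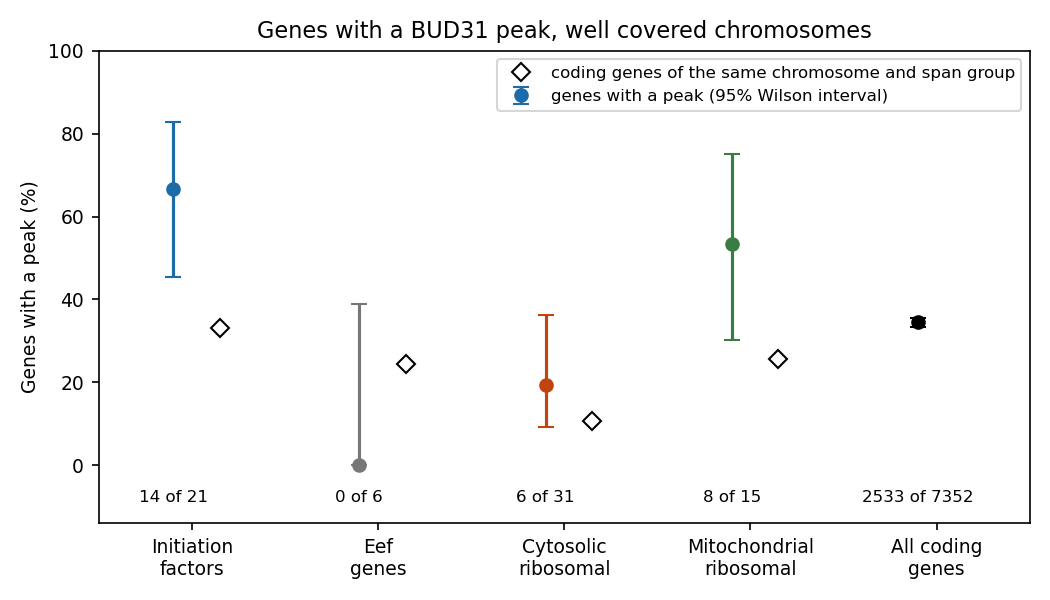
Share of genes with a peak (percent, y axis) by gene family on the 8 well covered chromosomes, with 95% Wilson intervals. None of the 6 genes listed under Eef had a peak. Open diamonds give the share among coding genes of the same chromosome and the same of 5 groups by gene span. Initiation factors stand at 66.7% with a diamond at 33.1%, and cytosolic ribosomal protein genes at 19.4% with a diamond at 10.6%.

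Gene length goes with the presence of a peak, and the families differ in length. The median span on the well covered chromosomes was 17444 bp for initiation factor genes, 7862 bp for mitochondrial and 3068 bp for cytosolic ribosomal protein genes, and 21500.5 bp for all coding genes. When coding genes were split into 5 groups of equal size by span, 9.45% of the shortest group (up to 5350 bp) had a peak and 51.1% of the longest. Coding genes of the same chromosome and span group as the initiation factors had a peak in 33.1%, which would be 6.95 genes, where 14 were found. The same count gave 3.86 genes for the mitochondrial ribosomal proteins, where 8 were found, and 3.29 for the cytosolic ones, where 6 were found. Of the 35 family genes in the shortest group 7 had a peak, 5 of them among 28 cytosolic ribosomal protein genes. In the middle group 8 of 13 did, 7 of them among 9 initiation factor genes, against 37.7% of all coding genes of that group. These figures are descriptions over genes of 1 list, and expression was not matched.

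**Figure D2:**
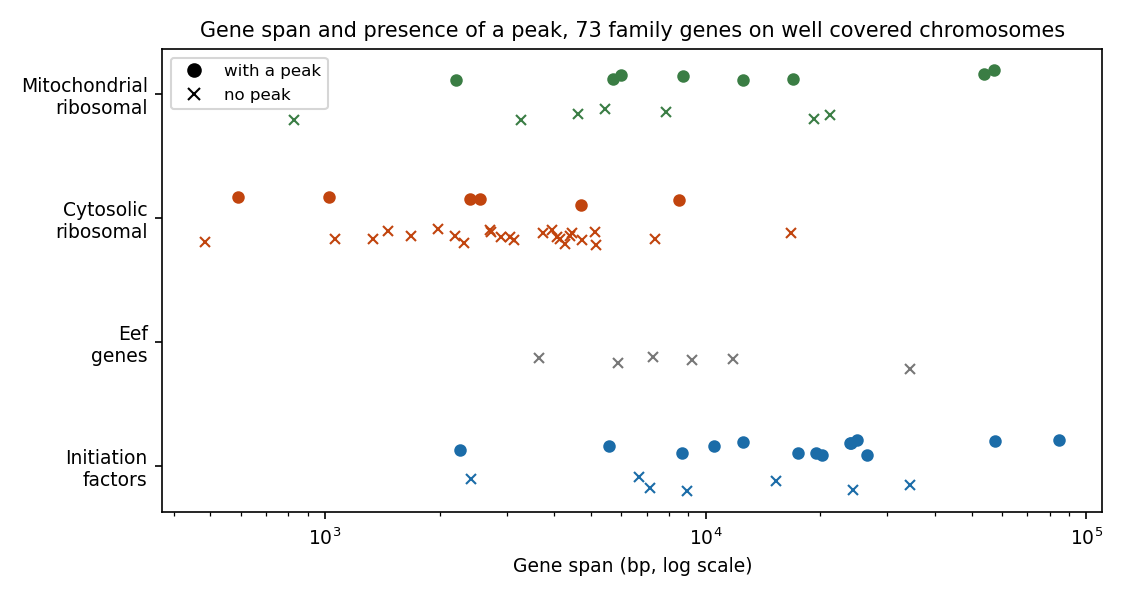
Span (bp, log scale, x axis) of the 73 family genes on the well covered chromosomes, by family. Filled circles are genes with a peak and crosses are genes without. Cytosolic ribosomal protein genes crowd at the short end, around their median of 3068 bp, and those with a peak lie among those without.

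All 3 genes for subunits of eIF2 had peaks, Eif2s1 (alpha), Eif2s2 (beta) and the X-linked Eif2s3x (gamma). Eif2s1, whose phosphorylation slows translation under stress, carried 4 intron peaks of 4305, 615, 615 and 15785 bp, which covered 81.1% of chromosome 12, 78862072 to 78887010. The last of them ran through the 3′ end of the gene. Eif2s3x carried 1 peak of 2760 bp annotated as 3′ UTR and 3 intron peaks of 3680, 2070 and 1610 bp, over 42.3% of its 23943 bp. Eif2s2 carried a single intron peak of 200 bp, the width of 1 bin of the list, over 0.93% of the gene. It is the only member outside the well covered chromosomes, on chromosome 2, whose coding genes were named by a peak in 5.33% of cases. Coverage of the 3 partner genes of this complex thus ran from 0.93% to 81.1%.

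eIF2B, the exchange factor of eIF2, had peaks in 2 of its 5 genes. A peak of 6400 bp covered 60.8% of Eif2b5, the catalytic epsilon subunit, and a peak of 2200 bp covered the 3′ end of Eif2b4, the delta subunit, over 36.6% of the gene. Both were annotated as intron. Eif2b1 and Eif2b2, on well covered chromosomes, had none, and Eif2b3 lies on chromosome 4, where no coding gene had a peak.

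Both genes for eIF1A, which helps the small subunit scan for the start codon, had peaks. Eif1ax on the X chromosome carried 7, from 159373211 to 159392760, of 230 to 5060 bp. They covered 74.3% of the gene, and gaps between the first 4 were 230 bp, or 1 bin, each. Of the 7, 5 were annotated as intron and the 2 nearest the 3′ end as intergenic. The first of these 2 still covers 3531 bp of the gene by the reference table and the other begins beyond it. The autosomal Eif1a lay wholly inside 1 peak of 21800 bp, the widest of the 66, which was annotated as intron and also overlaps the neighbouring gene Tmed7. Reads of such close copies can be shared, so the calls of Eif1a and Eif1ax are uncertain, as are those of Eif2s3x and its Y-linked copy.

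Eif3b, a core scaffold subunit of eIF3, had the most peaks of any member. Its 8 peaks were narrow, at 200 to 2200 bp with a median of 700 bp, and covered 25.8% of chromosome 5, 140419305 to 140443358. Of the 7 neighbouring pairs 4 skip a running number. The 1 exon peak, at 140427401 to 140427600, overlaps the last 9 bases of the microRNA gene Mir7038 (140427339 to 140427409), which lies within Eif3b. RefSeq gives its mature arms as below, with the seed (bases 2 to 8) in capitals, and the peak reaches the second of them.
mmu-miR-7038-5p: uGUAGAAGgaagggcugcugug
mmu-miR-7038-3p: cACUGCUCcugccuucuuacag
Of the other eIF3 genes only Eif3j2 lies on a well covered chromosome, and it had no peak. Another 8 lie on thinly covered chromosomes and also had none.

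The eIF4 group, which recruits messenger RNA through its cap, had peaks in 3 of 4 genes on well covered chromosomes. Eif4e2, a cap-binding protein that represses translation, carried 2 peaks of 9430 and 16195 bp that covered 93.6% of its 26578 bp, the wider of them annotated as 3′ UTR. Eif4g1, the scaffold of the cap complex, had 1 peak of 8800 bp over the 5′ side of the gene, at chromosome 16, 20674401 to 20683200, which stops short of the snoRNA gene Snord66 at 20684256. Eif4h, a helper of the helicase eIF4A, had 1 of 1400 bp. Eif4a2, that helicase itself, had none, although it holds 5 of the 26 snoRNA genes found in family genes. Of the late-acting factors, Eif5b, the GTPase of subunit joining, carried 4 wide intron peaks of 17220, 9840, 11480 and 8815 bp over 82.2% of its 57570 bp. The only peak of Eif5 was intergenic and began 1128 bp beyond the gene.

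The members also include 2 regulators with the Eif prefix. Eif2ak1, the heme-regulated kinase of eIF2 alpha, had 3 intron peaks of 200, 200 and 1200 bp over 1.88% of the longest member gene, 84926 bp. Eif4ebp3, an inhibitor of the cap-binding protein, is covered whole by a peak of 19200 bp that was annotated as intergenic and also overlaps Ankhd1, Sra1 and Apbb3. With no strand in the list, it cannot be assigned to 1 of these 4 genes.

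**Figure D3:**
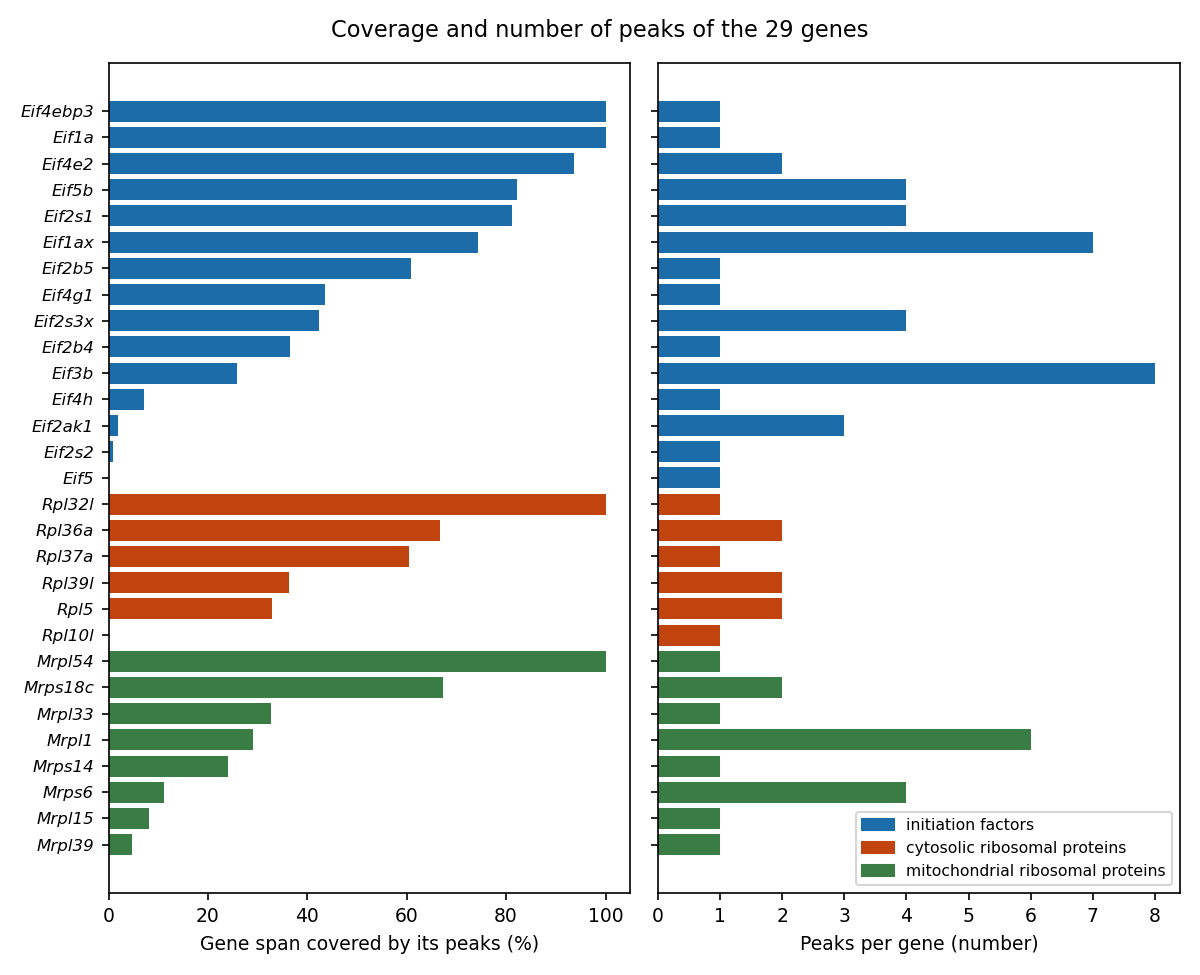
Percent of the gene span covered by its peaks (left) and number of peaks (right) for each of the 29 genes, ordered within family by coverage. Coverage runs from 0 (Eif5, Rpl10l) to 100% (Eif1a, Eif4ebp3, Rpl32l, Mrpl54), and Eif3b has the most peaks, 8, at 25.8% coverage.

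Cytosolic ribosomal protein genes with a peak were all of the large subunit. Of 23 Rpl genes on the well covered chromosomes 6 had a peak (26.1%, 12.5% to 46.5%) and of 8 Rps genes none had, which allows up to 37.5%, so these shares overlap. The Rps genes without a peak include Rps12 and the X-linked Rps4x. Genes were counted by symbol, so Rps23rg1 and Rpl31-ps12 are also among those without a peak. Rpl36a on the X chromosome had an exon peak of 920 bp at 134585651 to 134586570, which begins within 1 bin of the start site shown above, and an intron peak of 690 bp, together over 66.7% of its 2409 bp. Its autosomal copy Rpl36al had none. Rpl5, a protein of the 5S RNA particle, had an intron peak of 600 bp and an exon peak of 2200 bp at chromosome 5, 107906801 to 107909000. They lie over the snoRNA genes Gm22270 (107905177 to 107905308) and Gm26387 (107907345 to 107907476), while the third snoRNA gene of Rpl5, Snord21, was not under a peak. The exon peak also overlaps Dipk1a.

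The remaining 4 cytosolic members lay at or beyond the 3′ end, or are copies inside other genes. Rpl39l, a testis-expressed copy of Rpl39, had an exon peak of 3200 bp over 36.3% of the gene and an intergenic peak of 800 bp that lies 2490 bp beyond it. Rpl37a had 1 peak of 5740 bp, annotated as intergenic, of which 1543 bp lie in the gene. The peak named for Rpl10l, a copy of the X-linked Rpl10 used in male meiosis, lies 5444 bp beyond the gene and covers none of it. Rpl32l is covered whole by an exon peak of 800 bp and lies inside Map7. Neither Rpl10 nor Rpl39 had a peak. A further gene, Rpl35a, was overlapped over 37.2% of its span by an intron peak that the list names for Lmln, and was not counted. Many ribosomal protein genes have near-identical copies that can draw the same reads, and each of these calls is uncertain for that reason.

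Mitochondrial ribosomal protein genes with a peak came from both subunits, 5 of 10 Mrpl and 3 of 5 Mrps genes on well covered chromosomes. Mrpl1 carried 6 intron peaks of 3000, 1200, 600, 1800, 400 and 9600 bp over 29% of its 57230 bp. Mrps6, of similar length at 53892 bp, carried 4 of 1400 to 1600 bp over 11.1%, of which 1 also overlaps Slc5a3. Mrps18c had 2 over 67.3% of 5709 bp, and the wider one covers its start and touches Helq. Mrpl54 lay whole within 1 intron peak of 3400 bp that also overlaps Apba3. Mrpl33, Mrps14, Mrpl39 and Mrpl15 had 1 peak each, over 32.7%, 24.0%, 4.72% and 8.17% of the gene, and the peak of Mrpl15, at chromosome 1, 4778961 to 4779985, was the only one of the 17 outside introns (3′ UTR).

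The 3 families with peaks were set side by side by annotation class. Introns held 33 of 40 peaks of initiation factors (82.5%, 68.1% to 91.3%) and 16 of 17 of mitochondrial ribosomal proteins (94.1%, 73% to 99%), close to the 84.6% of all 14411 peaks of coding genes. Of the 9 peaks of cytosolic ribosomal proteins 2 were in introns (22.2%, 6.32% to 54.7%), 4 in exons (44.4%, 18.9% to 73.3%) and 3 were intergenic. Exons and UTRs held 9.87% of all coding peaks, 3 of 40 for initiation factors (7.5%) and 1 of 17 for mitochondrial ribosomal proteins (5.88%). Since the list gives each peak a single class, a wide intron peak can cover exons too. The 5′ UTR class held none of the 66 peaks and 0.729% of all coding peaks.

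The 40 peaks of initiation factors had a median width of 1957.5 bp (95% interval of the median 1000 to 3910), the 17 of mitochondrial ribosomal proteins 1435 bp (1025 to 3000) and the 9 of cytosolic ones 920 bp (690 to 3200), against 1400 bp over all coding genes. The intervals overlap. Initiation factors held both extremes, with 7 peaks of a single bin (17.5%, against 13.1% of all coding peaks) and 13 of 4000 bp or wider (32.5%, against 18.2% of all coding peaks). Those 13 lay in 8 genes, whereas each ribosomal family had 1 such peak, in Rpl37a and in Mrpl1. The 7 peaks of a single bin lay in Eif3b, Eif2ak1, Eif2s2 and Eif1ax only. Members had few peaks, with 16 of 29 having 1 (55.2%, against 31.8% of coding genes with a peak) and a median of 1 against 3. The mean was 2.67 peaks per gene for initiation factors, 2.12 for mitochondrial and 1.50 for cytosolic ribosomal proteins, against 5.36. Coverage went the other way, with a median of 36.6% of the gene span (24.0% to 67.3%) against 13.5% over coding genes with a peak. It reached 50% or more in 12 members (41.4%, against 18.2%). Neither peaks per gene nor coverage was matched for gene span. Family genes on the well covered chromosomes are shorter, with a median span of 5582 bp against 21500.5 bp for coding genes there. Both medians include genes without a peak, and spans of genes with a peak alone were not compared. By family the median coverage was 43.6% for initiation factors, 48.4% for cytosolic and 26.5% for mitochondrial ribosomal proteins.

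**Figure D4:**
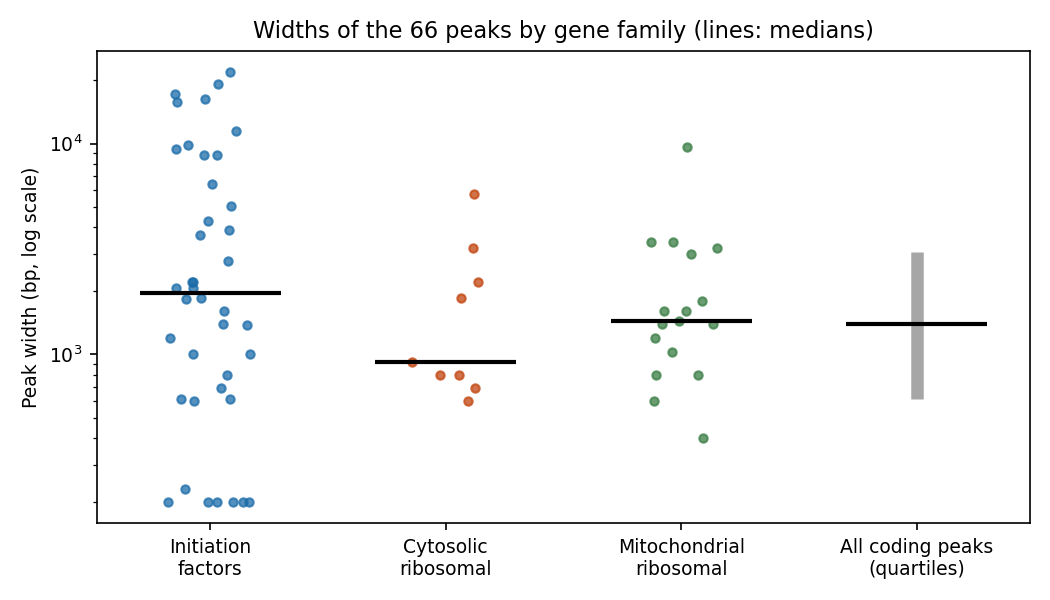
Width (bp, log scale, y axis) of each of the 66 peaks by family, with black lines at the medians of 1957.5, 920 and 1435 bp. The grey bar gives the quartiles of all coding peaks, 615 to 3075 bp. Initiation factors hold the narrowest and the widest peaks.

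Along the gene, the 3′ part had coverage in more of the 25 members with a known strand than the 5′ part. This was mainly among the ribosomal protein genes. When each of the 25 genes with a known strand was cut into 3 parts of equal length, 14 had coverage in the 5′ part (56%), 19 in the middle (76%) and 21 in the 3′ part (84%). For 2134 coding genes with a peak these shares were 63.3%, 66.4% and 70.3%. Mean coverage was 32.8%, 39.9% and 49.2% of the 3 parts for members and 22.6%, 23.7% and 23.4% for all. All 6 mitochondrial ribosomal protein genes with a strand had coverage in the 3′ part and 3 had it in the 5′ part. For the 6 cytosolic ones these counts were 5 and 2, and for the 13 initiation factor genes they were 10 and 9. A peak reached more than 1 bin beyond the annotated 3′ end in 8 of 25 members (32%), namely Eif1ax, Eif2s1, Eif4e2, Eif5, Rpl10l, Rpl37a, Rpl39l and Mrpl33, against 16.3% of coding genes with a peak. At the 5′ end this was so in 0 of 25 members, where the limit is 3 of 25, and in 12.9% of coding genes. The 4 members with no known strand are in none of these counts. Of them Eif1a, Eif4ebp3 and Mrpl54 are covered from end to end, so they have coverage in all 3 parts on either strand. The peak of Eif4ebp3 also reaches more than 1 bin beyond both ends of its gene, and so beyond its 5′ end. A peak named for the nearest gene counts here too, so the stretch beyond a 3′ end may belong to another transcript, which was not tested.

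**Figure D5:**
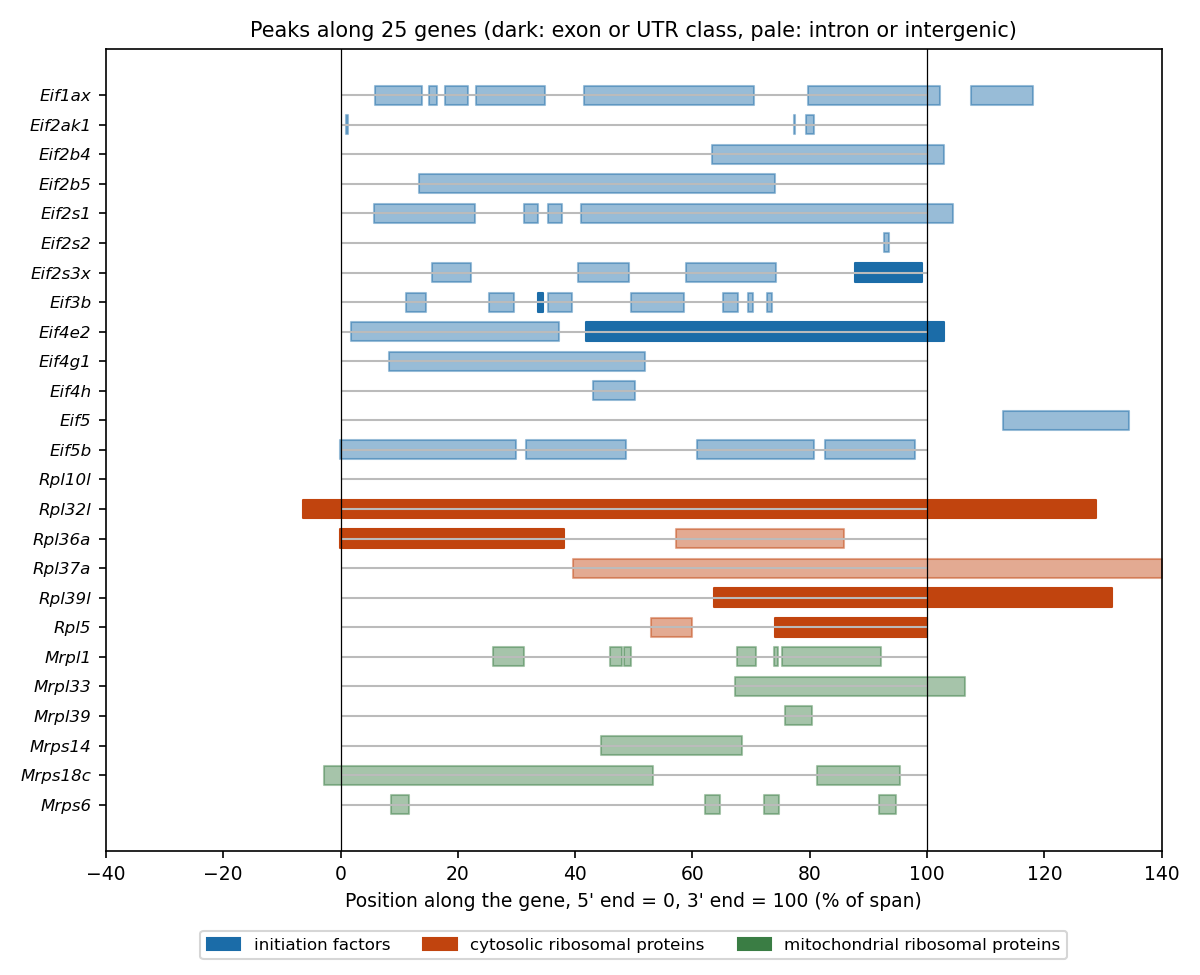
Peaks along 25 genes with a known strand, scaled so that 0 is the 5′ end and 100 the 3′ end (percent of gene span). Dark boxes are peaks of exon or UTR class and pale boxes those of intron or intergenic class. Boxes that cross 100 are more frequent than boxes that cross 0; the peak of Rpl10l and the second peak of Rpl39l lie beyond the right edge, and that of Rpl37a runs past it.

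Other genes of translation, grouped by function in lists written with earlier results of these data known, are described on the well covered chromosomes. Ribosome biogenesis genes had a peak in 18 of 24 (75%, 55.1% to 88.0%), where coding genes of the same chromosome and span group would give 8.13. They include Nop58, of the snoRNA particles, with 6 peaks, Utp14a on the X chromosome with 6, Utp20 and Wdr12 with 5 each, and Dkc1, the pseudouridine synthase, with 2. Release, recycling and poly(A)-binding genes had a peak in 6 of 10 (60%, 31.3% to 83.2%, against 3.37 genes). Of these genes Mcts1 had 4 peaks, and Etf1, the release factor, had 1 over 81.4% of its span. On thinly covered chromosomes 2 of 7 more had one, against 0 of 25 ribosome biogenesis genes, 0 of 8 synthetase genes and 0 of 4 mitochondrial translation factor genes there. They include Pabpc1, the main poly(A)-binding protein, with 8 intron peaks over 48.7% of the gene. Genes listed as aminoacyl-tRNA synthetases, which load tRNAs, had a peak in 9 of 18 (50%, 29% to 71%, against 6.18 genes). Eprs held 22 peaks, Dars 15 and Iars2 10. The list also holds Aimp1, Aimp2 and Eef1e1, which are not themselves synthetases, and Aimp2 is 1 of the 9. Of 4 mitochondrial translation factor genes 1 had a peak, Tsfm.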

How the data were processed

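The sources give 1 BUD31 immunoprecipitate library and 1 input library of germ cells. The submitters' processing notes name TopHat2 2.0.13 and the mm10 build. How peaks were called, at which threshold and with what use of the input is not stated in the labels or the list. The authors deposited 1 annotated peak list whose values are start and end positions, another kind of number than a count or score. Positions lie on a grid of 200 to 230 bp bins on the well covered chromosomes.

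Members were found by symbol and by the protein-coding label of the list. The members and lists were chosen with earlier results of these data known. All 29 matched the RefSeq gene table of GRCm38.p6 by gene number, and 25 had a start site there. Mettl13, named Eef1aknmt in that table, was left out of the Eef genes because the list names it otherwise; it had 3 peaks. Coverage is the union of the peaks named for a gene within its extent, in 1-based coordinates, and an overlap is at least 1 bp. Families were compared by counts with no test. Every member is named, and members without a peak where they are copies of a named gene or subunits of its complex. Scripts were tested on simulated data. The work used scipy 1.17.1, pandas 2.3.3 and numpy 2.4.6 under Python 3.11.15. Alternatives were another rule for a peak in a gene, well covered chromosomes, wider peaks, the widest peak per gene, bins, and families without regulators.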

Additional observations from a re-analysis of the deposited data

How the results depend on the processing

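Of 60 values recomputed for 16 results, 58 stayed within the counting interval of the reported value and 2 moved beyond it. Some of the 58 could not move. The share of Eef genes was 0 in every setting, and the interval of cytosolic coverage ran from 0 to 100%. In some settings the ribosomal families also kept the same genes and peaks. When only well covered chromosomes were kept, the share of initiation factor genes with a peak was 66.7% instead of 34.9%, and that of mitochondrial ribosomal protein genes was 53.3% instead of 16.7%, since this leaves out chromosomes with few peaks. Peaks over no other gene, and coverage by wider peaks, were chosen after seeing the data. Wide intervals limit these comparisons: with 6 cytosolic members, the exon and UTR share of 44.4% was 66.7% with the widest peak of each gene, and the median coverage of 48.4% was 12.9% with wider peaks alone. No paired analysis was possible because each group has 1 library. Depth is unknown, so an absent peak does not show an absent RNA.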

Other observations

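Some peaks of the same gene families were left out because the list does not label the gene as protein-coding. Eif2s3y, the Y-linked partner of Eif2s3x, is labelled as noncoding in the list. It had 2 peaks, of 15180 bp in an intron and 440 bp in an exon, which together covered 40.5% of the gene. In the shares above it stands among the 43 initiation factor genes as a gene without a peak. Rps13-ps4, a pseudogene on chromosome 8, was covered whole by an exon peak of 5000 bp.

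Pseudogenes named for these families were overlapped by a peak in 2 of 141 on the well covered chromosomes (1.42%, 0.39% to 5.02%). For all other pseudogenes there this was 159 of 3936 (4.04%, 3.47% to 4.70%). Their median spans were 516 and 964.5 bp. The second of the 2, Rps19-ps6, lies under an intron peak named for Tecpr2. Of 26 snoRNA genes inside family genes on these chromosomes 2 lay under a peak (7.69%, 2.14% to 24.1%), both in Rpl5. For snoRNA genes inside any coding gene this was 24 of 177 (13.6%, 9.28% to 19.4%). Within host genes that have a peak it was 2 of 5 for family genes (40%, 11.8% to 76.9%) and 23 of 96 for any coding gene (24%, 16.5% to 33.4%).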
